A study of Mus musculus with 4 samples.

Results

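The genes described here encode the nuclear subunits of the 5 mitochondrial complexes of oxidative phosphorylation, measured in mouse liver. With earlier results of these data known, members were chosen by a rule on symbols that uses no measured value. They are the genes of the platform annotation whose symbol begins with Ndufa, Ndufb, Ndufc, Ndufs, Ndufv, Uqcr, Cox4 to Cox8 or Atp5, or is Sdha to Sdhd, without the Ndufaf assembly factors. This gave 75 genes of the 9285 named on the array: 32 of complex I, 4 of complex II, 8 of complex III, 14 of complex IV and 17 of complex V. Ndufa4 was set with complex IV, to which its protein is now assigned. All 75 had a value in every column, and no filter on low values was applied.

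Livers came from male mice of B6/FVB background, 7 to 8 weeks old, on a diet with enough selenium, and each mutant was compared with wild-type littermates that carry the selenocysteine tRNA gene, Trsp. DTrsp mice lack Trsp in the liver; the deleter that removes it is not named in the labels. The A34 line has a Trsp transgene in which T34 became A34, at 2 copies. In the G37L and G37H lines the transgene has G37 in place of A37, at 2 copies in G37L and at 16 in G37H. The labels do not say whether the transgenic livers keep their own Trsp, or whether the 4 comparisons share wild-type animals. Each column is the authors' average of 2-colour arrays over 3 animals in G37H and over 4 in each other line. There is therefore 1 value per probe and line, with no spread between animals and no test. Ratios are read as log2 of mutant over wild type from the dye labels, a direction that is likely but not stated, with the base of the logarithm assumed. Trsp itself was not checked. Higher and lower below describe these averages, and differences between lines cannot be set against a replicate error.

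Complex I takes electrons from NADH and complex II takes them from succinate; both pass them through coenzyme Q to complex III, which hands them to cytochrome c. Complex IV gives them to oxygen, and complex V, the ATP synthase, uses the proton gradient built by complexes I, III and IV. Hepatocytes are rich in mitochondria, and most subunits are encoded in the nucleus. The factors NRF1, GABPA, YY1 and ESRRA, with coactivators of the PGC-1 family, are known to drive many of these genes. No subunit of the 5 complexes is a selenoprotein.

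Promoter stretches are shown first for the 3 members with the highest values in DTrsp, Cox6a1, Cox8a and Uqcr10, because they stood farthest above wild type. Each is the 250 bases before the RefSeq start site in GRCm38.p6, 5′ to 3′ on the gene's strand, with matches to the NRF1 motif, read as the letters GCGCA and GCGC with any base between them, in capitals. The stretches lie on the minus strand at chr5:115348959-115349208, chr19:7217617-7217866 and chr11:4704345-4704594.
Cox6a1: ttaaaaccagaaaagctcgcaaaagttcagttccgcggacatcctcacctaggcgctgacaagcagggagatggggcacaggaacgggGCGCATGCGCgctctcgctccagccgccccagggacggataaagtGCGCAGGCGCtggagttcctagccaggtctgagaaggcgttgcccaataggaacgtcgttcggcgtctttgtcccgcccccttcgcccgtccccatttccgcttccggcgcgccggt
Cox8a: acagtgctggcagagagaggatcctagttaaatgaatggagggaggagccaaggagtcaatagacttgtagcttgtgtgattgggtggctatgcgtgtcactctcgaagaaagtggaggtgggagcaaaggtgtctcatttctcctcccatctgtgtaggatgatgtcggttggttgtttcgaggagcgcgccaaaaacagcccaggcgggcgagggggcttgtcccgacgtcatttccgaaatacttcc
Uqcr10: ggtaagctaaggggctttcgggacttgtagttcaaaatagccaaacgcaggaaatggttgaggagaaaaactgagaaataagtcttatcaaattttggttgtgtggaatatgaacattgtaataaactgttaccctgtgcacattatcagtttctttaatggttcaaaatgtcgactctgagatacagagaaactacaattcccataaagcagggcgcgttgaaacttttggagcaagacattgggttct

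Cox6a1 held 2 matches and the other two held 0. Shorter stretches around single matches, with the motif again in capitals, are shown for subunits of complexes I, II and V to give the bases beside it; the capitals themselves were set by the search. They lie at chr4:123718265-123718294 (Ndufs5), chr9:50603909-50603938 (Sdhd), chr15:102671070-102671099 (Atp5g2) and chr5:108434430-108434459 (Atp5k), all on the minus strand.
Ndufs5: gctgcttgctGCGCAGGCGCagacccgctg
Sdhd: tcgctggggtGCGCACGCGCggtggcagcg
Atp5g2: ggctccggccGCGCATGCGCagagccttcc
Atp5k: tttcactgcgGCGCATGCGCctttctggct

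RefSeq promoters were at hand for 63 of the 75 members. Matches to the NRF1 motif on either strand, within 250 bases before the start, were found for 11 of them (17.5%), against 9.15% of 7532 genes on the array and 4.23% of 27025 genes in all. The 11 are Ndufa5, Ndufa8, Ndufb4, Ndufs5, Sdha, Sdhd, Cox6a1, Atp5c1, Atp5g2, Atp5h and Atp5k. The GABPA motif CCGGAAGT was found for 3 (4.76%, against 6.49% of genes on the array), the YY1 motif AAGATGGC for 1 (1.59%, against 2.44%), the ESRRA motif TGACCTTG for 3 (4.76%, against 1.31%) and the TATA box letters TATAAA for 6 (9.52%, against 9.25%). With the 50 bases after the start included, a window chosen after seeing the data, the counts were 15 for NRF1 (23.8%, against 11.2%), 9 for YY1 (14.3%, against 5.31%), 5 for GABPA (7.94%, against 8.90%), 4 for ESRRA (6.35%, against 1.43%) and 6 for the TATA box (9.52%, against 10.2%). No motif contains another, and a match is a description of the sequence only. Genes with and without an NRF1 match had close medians: in DTrsp the 11 genes had a median log2 ratio of 0.39 and the other 52 one of 0.46, and in the other lines the medians were between 0.07 and 0.11 with a match and between 0.08 and 0.15 without. At least 1.5-fold higher in DTrsp, as were 15.6% of all genes, was 1 of the 11, Cox6a1, and 21 of the 52.

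In DTrsp liver, subunits of all 5 complexes lay above wild type, by moderate amounts. The median log2 ratio of the 75 genes was 0.45 (1.37-fold), against 0.16 for all genes, and 71 of the 75 were above 0, against 64% of all genes. At least 1.5-fold higher were 28 members (37.3%), against 15.6% of all genes, and 0 were lower by that much, against 6.96%. The 28 became 14 when centred on the median of all genes and 47 when the values were read as natural logarithms. Centred on the lists called abundant transcripts below, 0 remained. The share of all genes was not recomputed at these settings, so these counts have no background beside them. At least 2-fold higher were 2 members, Cox6a1 and Cox8a, against 3.27% of all genes, and 0 fell below wild type by 2-fold, against 1.62%. The members also lay close together, with quartiles of 0.34 and 0.71 where all genes had -0.15 and 0.44.

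The other lines showed no such level. A34 had a median over the members of 0.15, G37L one of 0.07 and G37H one of 0.09, against 0.07, -0.11 and -0.11 for all genes. Above 0 were 57 members in A34 (59.1% of all genes), 47 in G37L (39.4%) and 54 in G37H (38.4%). Members at least 1.5-fold higher numbered 4 in A34 (7.6% of all genes), 1 in G37L (7.45%) and 3 in G37H (7.3%). At least 1.5-fold lower were 0 members in A34 (2.65% of all genes), 0 in G37L (15.3%) and 2 in G37H (13.1%). At 2-fold, 1 member was higher in G37H (2.78% of all genes) and 0 in A34 (1.4%) or G37L (2.51%). At least 2-fold lower were 0 members in A34 (0.452% of all genes), G37L (3.96%) and G37H (3.1%). Relative to the median of all genes, the member medians thus lay higher by 0.29 for DTrsp, 0.076 for A34, 0.18 for G37L and 0.21 for G37H. DTrsp had the highest value of the 4 lines for 64 of the 75 genes (85.3%), against 45.1% of all genes; the median of all genes was also highest in DTrsp. A34 was highest for 6 (27.9% of all genes), G37H for 4 (13.4%) and G37L for 1 (13.6%). With the ratios turned, DTrsp would be highest for 3 (16.3% of all genes) and A34 for 25 (14.8%). G37L would then be highest for 28 (34.4%) and G37H for 19 (34.5%).

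**Figure D1:**
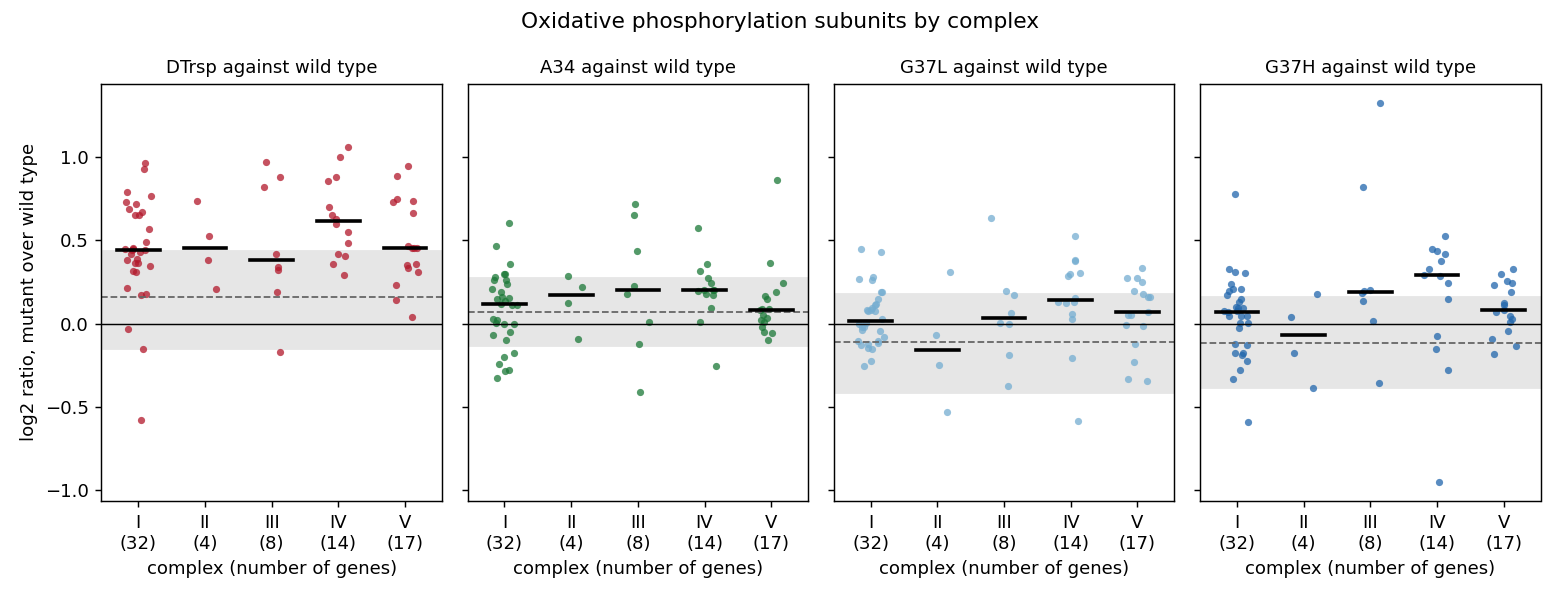
Log2 ratio of each of the 75 subunit genes (points), by complex (number of genes in brackets), in the 4 lines against wild type; black bars are medians over genes, the dashed line and grey band are the median and quartiles of all 9285 genes. In DTrsp the medians of the 5 complexes sit between 0.38 and 0.62, and in the other lines between -0.16 and 0.29.

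Cytosolic ribosomal protein genes, housekeeping genes and hepatocyte markers are called abundant transcripts here, by list and not by measured signal. The level of the subunits in DTrsp was shared with these lists. Medians were 0.51 for 61 cytosolic ribosomal protein genes, 0.52 for 15 housekeeping genes, of which Sdha is also a member, and 0.57 for 24 hepatocyte markers. The hepatocyte markers were also above wild type in A34, at 0.34, G37L, at 0.58, and G37H, at 0.40. Against the 98 genes of these lists that are no members, with a median of 0.54, the subunits lay at -0.082. So centred, 0 of the 75 stayed at least 1.5-fold higher, and the share of all genes was not recomputed. For A34 the offset from the 98 genes was -0.084, for G37L -0.27 and for G37H -0.10. The sign of the subunit median therefore depends on whether it is read as deposited or relative to abundant transcripts. Macrophage markers were mixed in DTrsp: 15 of them had medians of -0.01 in DTrsp, with A34 at 0.60, G37L at 0.62 and G37H at 0.48. In DTrsp they ranged from -0.59, for the complement gene C1qa, to 1.02, for the scavenger receptor Cd163. Of the 15, 4 were at least 1.5-fold higher in DTrsp (15.6% of all genes). A34 had 8 (7.6%), G37L 9 (7.45%) and G37H 6 (7.3%). Clec4f, a lectin of Kupffer cells, was at 0.97 in DTrsp and the phagocyte receptor Timd4 at 0.92. Some macrophage markers thus lay above the subunit median and others below 0. The 5 lymphocyte markers had medians of 0.30, -0.01, -0.67 and -0.40, and the 11 stellate and endothelial markers 0.22, 0.28, -0.03 and -0.05, in the same order of lines. The part of cell composition in the subunit values was not tested, and in whole liver fewer cells of a type and less RNA per cell cannot be told apart. Ratios hold no signal level, so the tissue could not be checked by the presence of its markers.

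Complex I had a median of 0.44 in DTrsp. There 29 of 32 genes were above 0 (64% of all genes) and 10 at least 1.5-fold higher (15.6%). The other lines were lower, with medians of 0.12 for A34, 0.02 for G37L and 0.07 for G37H. The 6 core subunits measured, which hold the flavin and iron-sulphur clusters that carry electrons, or line the quinone site, had a median of 0.53 in DTrsp and of 0.15, -0.01 and 0.04 in A34, G37L and G37H. Ndufv1, which binds NADH and the flavin, was at 0.93 in DTrsp, with 0.21 in A34, -0.11 in G37L and -0.17 in G37H. DTrsp was the highest line by a wide margin, and both G37 lines lay below 0. Ndufs8, an iron-sulphur subunit near the quinone site, was at 0.73, 0.16, -0.23 and 0.21. Ndufs3 was at 0.57 and Ndufs7 at 0.49 in DTrsp, and both were between 0.07 and 0.26 in the other lines. Ndufs1, the largest core subunit, and Ndufv2 were at 0.45 and 0.37 in DTrsp. Ndufs1 was below 0 in each of the other lines, at -0.20, -0.25 and -0.33.

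The 26 accessory subunits of complex I, which surround the core and are needed for its assembly and stability, had a median of 0.42 in DTrsp. Ndufb2 led them at 0.97, with -0.07 in A34, 0.19 in G37L and 0.00 in G37H. Ndufa1, a small membrane subunit, was at 0.79 in DTrsp and between 0.08 and 0.12 in the other lines. Ndufc1 was at 0.77, Ndufb10 at 0.72, Ndufa6 at 0.69, Ndufb5 at 0.67 and Ndufa9 at 0.65 in DTrsp. Of these 5, Ndufb5 was the most even across the other lines, at 0.24, 0.27 and 0.31, while Ndufa9 was at -0.05, 0.00 and -0.28.

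Ndufab1, the mitochondrial acyl carrier protein, which also serves fatty acid and lipoate synthesis, was split between lines. It was at 0.65 in DTrsp, with -0.33 in A34, 0.28 in G37L and -0.59 in G37H. It was the member with the largest drop from 2 to 16 copies of the G37 transgene, at -0.87. Ndufa12, an accessory subunit at the matrix arm, ran the other way, with its lowest value in DTrsp at 0.18 and 0.47, 0.45 and 0.78 in A34, G37L and G37H.

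Some accessory subunits lay below wild type in DTrsp. Ndufb11, encoded on the X chromosome, was at -0.58 in DTrsp, just inside the 1.5-fold limit of 0.585, and at 0.36, -0.12 and 0.17 in the other lines. Ndufb7 was at -0.15 in DTrsp and 0.61 in A34, with -0.12 and -0.18 in G37L and G37H, and Ndufa8 was at -0.03, 0.11, 0.43 and 0.07. These 3 and Uqcrq were the only members below 0 in DTrsp. The other 14 accessory subunits were between 0.17 and 0.46 in DTrsp, with Ndufs4 and Ndufa3 varying least over the lines, from 0.00 to 0.17 and from 0.19 to 0.31.

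Complex II is also an enzyme of the tricarboxylic acid cycle and has 4 subunits, all measured. Its median was 0.46 in DTrsp, with 0.17 in A34, -0.16 in G37L and -0.07 in G37H. Sdhc, a membrane anchor with the quinone site, was at 0.74 in DTrsp, with 0.12 in A34, -0.25 in G37L and -0.39 in G37H. Its 2 probes were at -0.52 and 0.02 in G37L and at -0.71 and -0.07 in G37H, so its values there are unsettled. Sdhd, the other anchor, was above 0 in all 4 lines, at 0.38, 0.22, 0.31 and 0.18. Sdhb, the iron-sulphur subunit, was at 0.21 in DTrsp, with 0.29 in A34, -0.53 in G37L and 0.04 in G37H. Its 2 probes stood 1.29 apart in DTrsp, at -0.44 and 0.85, so its value there is unsettled.

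Sdha, the flavin subunit that oxidises succinate, is the best measured member, because 58 spots of the array carry it. The mean over the spots was 0.53 ± 0.48 (SD over 58 spots) in DTrsp, with -0.09 ± 0.21 in A34, -0.07 ± 0.29 in G37L and -0.18 ± 0.36 in G37H. These SDs describe spots of 1 gene on averaged arrays and not animals. Above 0 were 52 of the 58 spots in DTrsp; A34 had 17, G37L 21 and G37H 14. The 29 spots annotated with both of the gene's accessions were tighter, at 0.74 ± 0.24, -0.05 ± 0.12, -0.01 ± 0.13 and -0.05 ± 0.08 in the same order. The 28 spots annotated with the mRNA accession alone ranged from -0.91 to 1.34 in DTrsp and had a mean of 0.30 ± 0.57. With either set, Sdha had its highest mean in DTrsp.

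**Figure D2:**
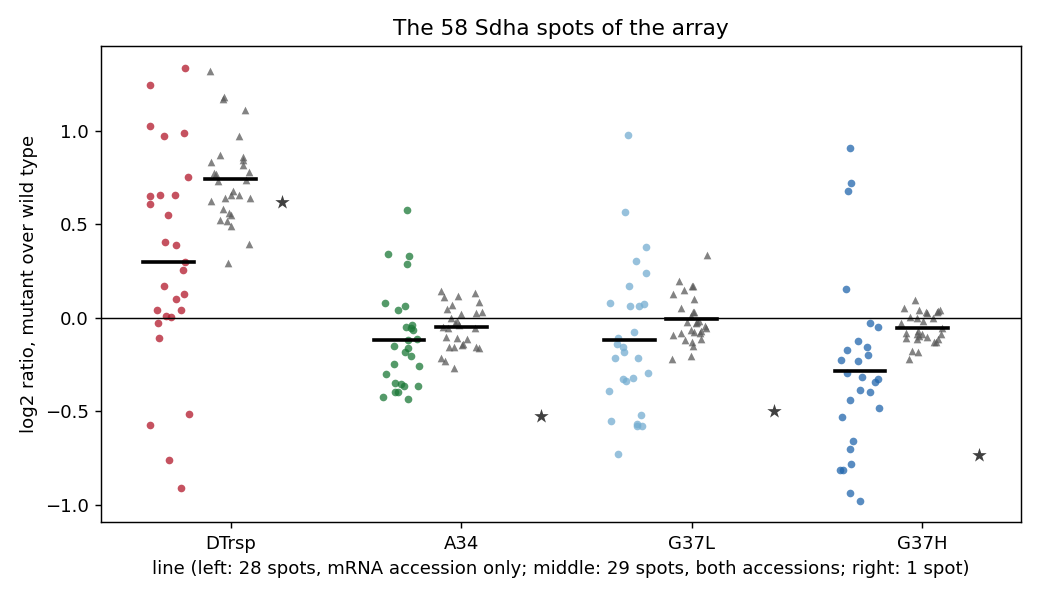
Log2 ratio of each of the 58 Sdha spots in the 4 lines, split by the accessions in their annotation; black bars are means over spots, and the star is the 1 spot with the RefSeq accession alone. All 29 spots with both accessions are above 0 in DTrsp, and those with the mRNA accession alone are spread from -0.91 to 1.34.

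Complex III had a median of 0.38 in DTrsp, with 0.20 in A34, 0.04 in G37L and 0.19 in G37H. Its core proteins Uqcrc1 and Uqcrc2, related to mitochondrial processing peptidases, were at 0.82 and 0.88 in DTrsp. Uqcrc1 was then at 0.44 in A34 and 0.00 and 0.01 in G37L and G37H, and Uqcrc2 between 0.18 and 0.20 in those lines. Uqcrfs1, the Rieske iron-sulphur protein that passes electrons towards cytochrome c1, was at 0.42 in DTrsp, with -0.12 in A34, -0.37 in G37L and -0.36 in G37H. Cyc1, the haem subunit that the rule of symbols leaves out, was at 0.18, 0.01, -0.06 and 0.07; it is named after its values were seen.

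Uqcr10, a small subunit of the complex, was the one member at least 1.5-fold higher in all 4 lines. It was at 0.97 in DTrsp, with 0.72 in A34, 0.63 in G37L and 0.82 in G37H, all from 1 probe. The lines lay within 0.34 of each other. The share of all genes at least 1.5-fold higher in all 4 lines was not computed. Uqcrq, another small subunit, had the widest range of all members, 1.74. It was at -0.17 in DTrsp, -0.41 in A34 and -0.19 in G37L, and at 1.33 in G37H, where it was the highest member. The decimals of this 1 probe show an average over fewer arrays than labelled in DTrsp, A34 and G37H. Uqcr11 was at 0.65 in A34 and between 0.00 and 0.34 in the other lines, and Uqcrb and Uqcrh were above 0 in each line, between 0.01 and 0.32.

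**Figure D3:**
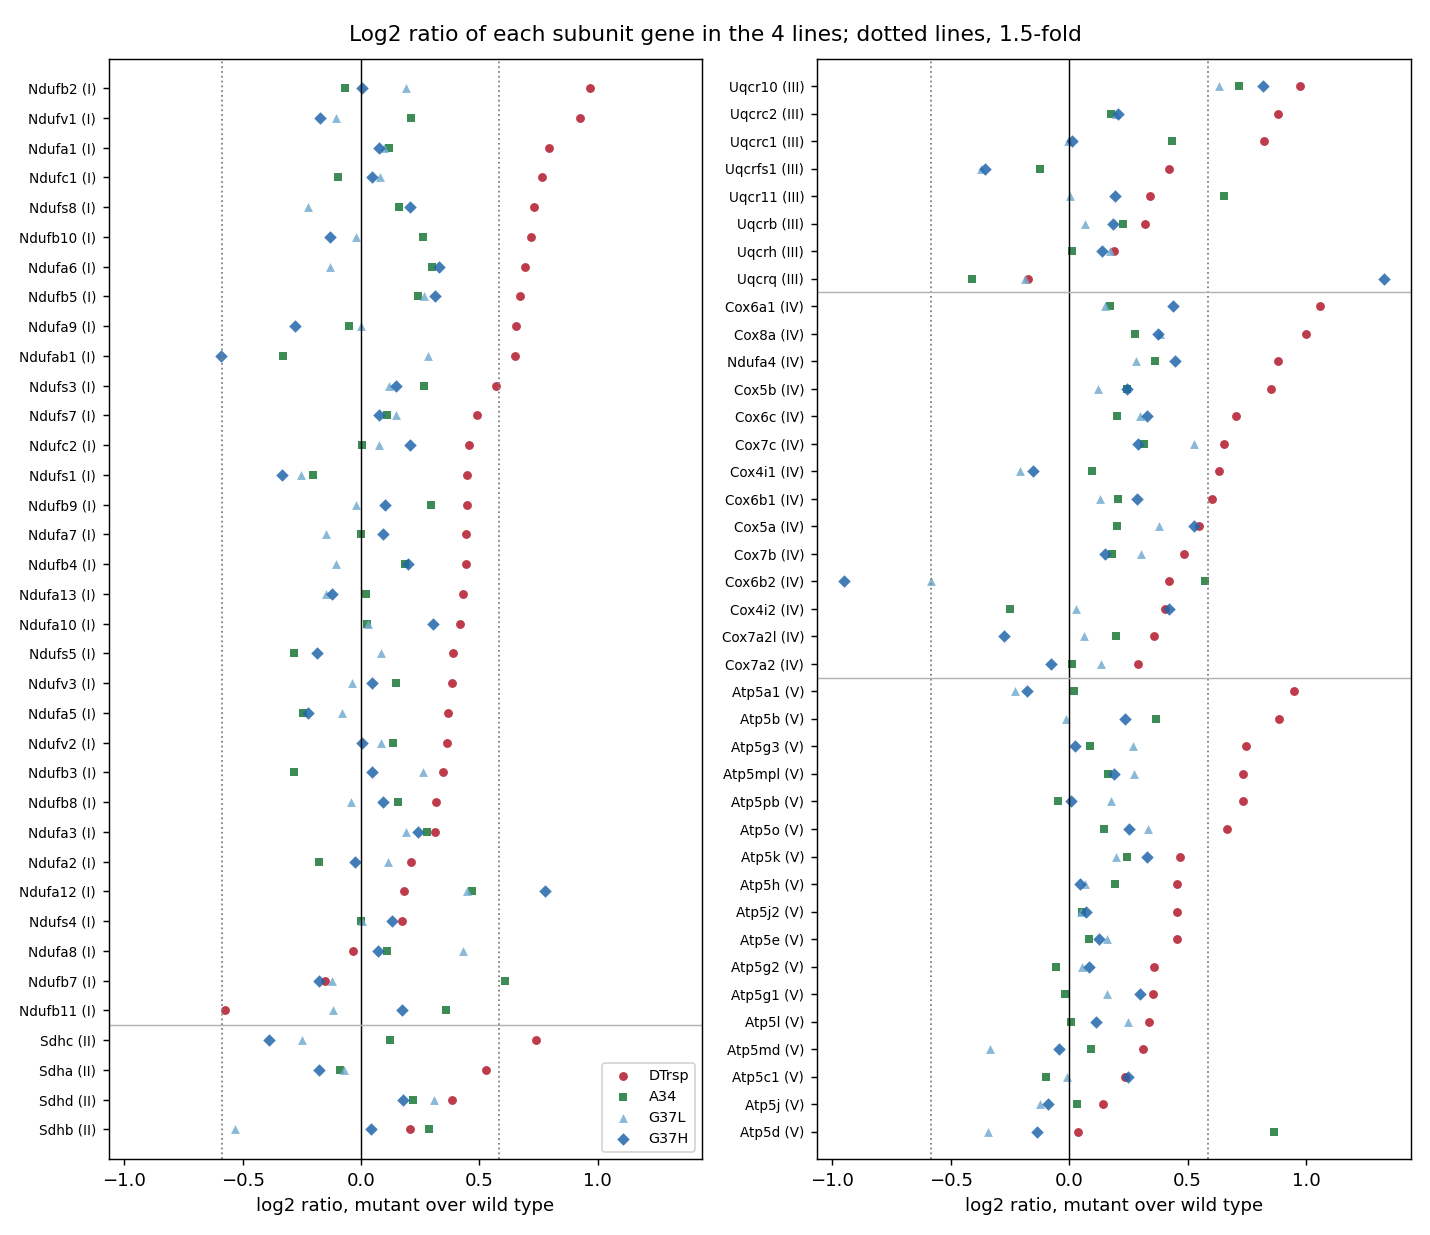
Log2 ratio of each of the 75 genes in DTrsp (red circles), A34 (green squares), G37L (light blue triangles) and G37H (dark blue diamonds), ordered within each complex by the DTrsp value; dotted lines mark 1.5-fold. DTrsp points lie to the right of the other lines for 64 of the genes, and the exceptions include Uqcrq at 1.33 in G37H and Atp5d at 0.86 in A34.

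Complex IV had the highest median in DTrsp, 0.62. There 14 of 14 genes were above 0 (64% of all genes) and 8 at least 1.5-fold higher (15.6%). Over its 11 common nuclear subunits the median was 0.65 in DTrsp, with 0.20 in A34, 0.28 in G37L and 0.29 in G37H, in each line above the median of all 75 members. Nuclear subunits surround the mitochondrially encoded catalytic core of cytochrome c oxidase and adjust its activity and stability. Cox6a1, the liver form of subunit 6a, was at 1.06 in DTrsp (2.08-fold), with 0.17 in A34, 0.15 in G37L and 0.44 in G37H. Its 2 probes were at 1.10 and 1.02 in DTrsp, 0.08 apart. Cox8a, a small membrane subunit, was at 1.001, 0.28, 0.38 and 0.38, and Ndufa4 at 0.88, 0.36, 0.28 and 0.45. Cox5b, which binds zinc, was at 0.85, 0.24, 0.12 and 0.24, with probes at 0.93 and 0.78 in DTrsp.

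Cox6c, Cox7c, Cox4i1 and Cox6b1 were at 0.70, 0.65, 0.63 and 0.60 in DTrsp, and Cox5a, Cox7b and Cox7a2 at 0.55, 0.49 and 0.29. Cox4i1, the main form of the largest nuclear subunit, was the only one of the 11 below 0 in G37L, at -0.21, and it was at 0.10 in A34 and -0.15 in G37H. Cox7c, at 0.53, and Cox5a, at 0.38, were among those farthest above 0 in G37L, and Cox5a was at 0.53 in G37H as well. All 11 were above 0 in A34, between 0.01 and 0.36.

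A pair of complex IV subunits are forms known mainly from other tissues, and they differed from each other. Cox6b2, the testis form of subunit 6b, was at 0.42 in DTrsp, with A34 at 0.57, G37L at -0.58 and G37H at -0.95, the lowest value of any member. Its counterpart Cox6b1 was at 0.60, 0.20, 0.13 and 0.29. Cox4i2, a form known from lung and from low oxygen, was at 0.41, -0.25, 0.03 and 0.42. Whether these 2 genes give signal above background in liver is unknown from ratios. Cox7a2l, which links complexes III and IV in supercomplexes, was at 0.36, 0.20, 0.06 and -0.28.

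Complex V had a median of 0.46 in DTrsp, and of 0.08, 0.07 and 0.08 in A34, G37L and G37H. In DTrsp all 17 genes were above 0 (64% of all genes) and 6 at least 1.5-fold higher (15.6%). Atp5a1 and Atp5b, which form the catalytic head, were at 0.95 and 0.88 in DTrsp. In the other lines Atp5a1 was at 0.02, -0.23 and -0.18, and Atp5b at 0.37, -0.01 and 0.23. Thus the gap between DTrsp and the next highest line was 0.93 for Atp5a1. Atp5d, the delta subunit of the central stalk, was at 0.04 in DTrsp, with 0.86 in A34, -0.34 in G37L and -0.14 in G37H, and it was the highest member in A34. Its neighbours in the stalk, Atp5c1 and Atp5e, were at -0.10 and 0.08 in A34. Atp5c1 had probes at -0.25 and 0.72 in DTrsp, so its mean of 0.23 there stands for neither.

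Among the 3 genes that encode the same mature c subunit of the rotor, Atp5g3 was at 0.75 in DTrsp and Atp5g1 and Atp5g2 at 0.35 and 0.36. In the peripheral stalk, which holds the head still, Atp5pb was at 0.73, Atp5o at 0.67, Atp5h at 0.46 and Atp5j at 0.14 in DTrsp. In the other lines Atp5pb lay close to wild type, at -0.05, 0.18 and 0.01. Of the small membrane subunits, Atp5mpl was at 0.74 in DTrsp and Atp5k, Atp5j2, Atp5l and Atp5md between 0.31 and 0.47. The c ring and these small subunits kept to between -0.33 and 0.33 in the other lines.

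Genes with several probes give a measure of precision within the array. The 12 members other than Sdha with 2 or 3 probes had a median gap between highest and lowest probe of 0.28 in DTrsp, with A34 at 0.20, G37L at 0.28 and G37H at 0.24. The widest gaps were 1.29 for Sdhb in DTrsp and 1.15 for Atp5md in G37L. Probes of opposite sign occurred in 2 of the 12 genes in DTrsp, and in 6 for A34, 9 for G37L and 4 for G37H. These gaps bear on the values of single genes, not on the medians over many genes.

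Between 2 and 16 copies of the G37 transgene the subunits differed little. G37H minus G37L had a median of 0.02 over the 75 genes, with 0.00 for complex I, -0.12 for complex II, 0.07 for complex III, 0.04 for complex IV and 0.03 for complex V. Past 1.5-fold were 1 gene higher, Uqcrq at 1.51, and 1 lower, Ndufab1 at -0.87, against 11.6% and 9.79% of all genes. Sdhb, at 0.58, and Ndufa6, at 0.46, followed on the higher side. A34 minus G37L, both with 2 copies, had a median of 0.02 over the members and of 0.20 over all genes. Its largest members were Atp5d at 1.21, Cox6b2 at 1.16 and Sdhb at 0.82. Against DTrsp, 67 of the 75 were lower in A34 (57.8% of all genes), 71 in G37L (69.2%) and 69 in G37H (69.6%), with medians of -0.39, -0.40 and -0.36 where all genes had -0.11, -0.28 and -0.29. These differences all rest on the same DTrsp column.

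**Figure D4:**
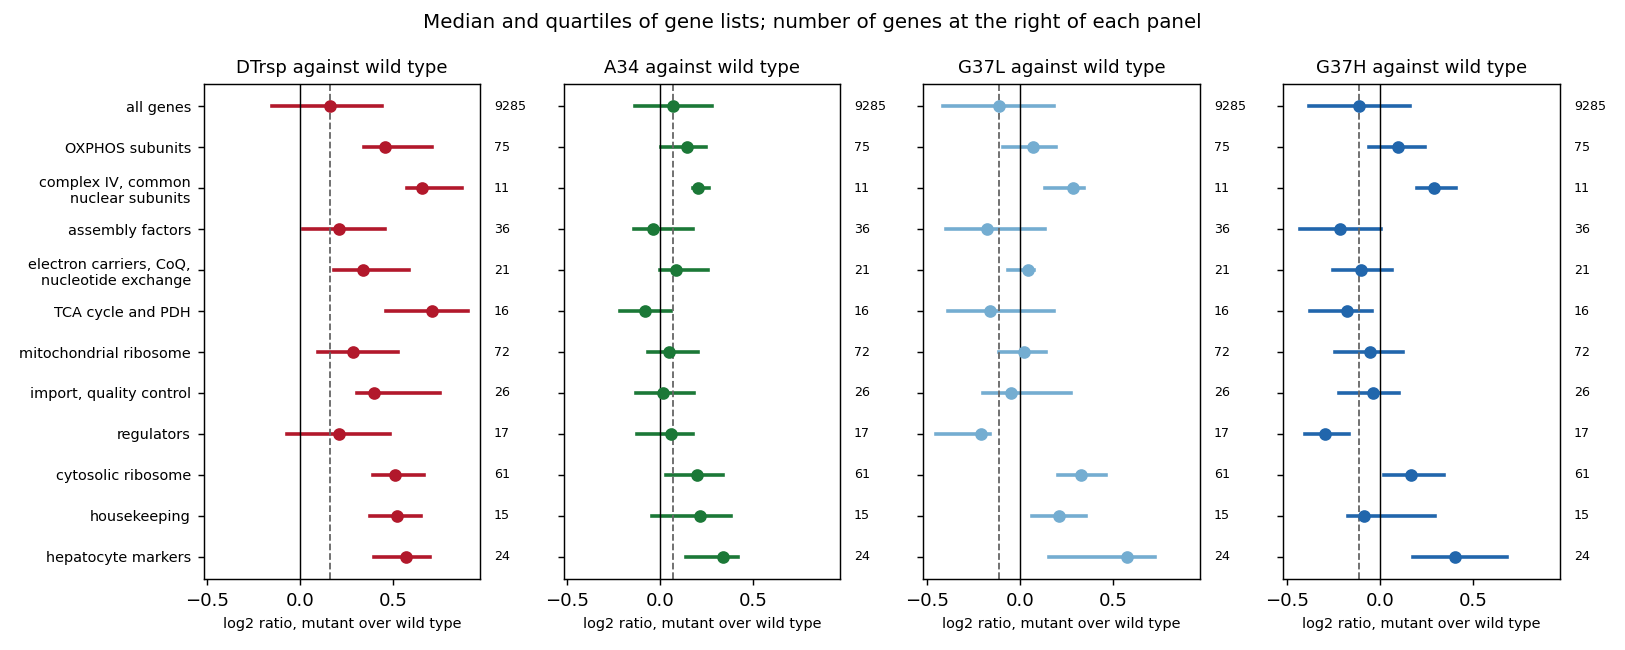
Median (points) and quartiles (bars) of the log2 ratio for the 75 subunit genes, the 11 common nuclear subunits of complex IV and related gene lists, in the 4 lines; the dashed line is the median of all genes. In DTrsp the tricarboxylic acid cycle list is highest at 0.71, and assembly factors and regulators, both at 0.21, lie near all genes.

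Other genes of mitochondrial respiration did not all share the level of the subunits. The 36 measured assembly factors, which build the complexes but are not part of them, had medians of 0.21 in DTrsp, with -0.04 in A34, -0.18 in G37L and -0.21 in G37H, and 6 were at least 1.5-fold higher in DTrsp (15.6% of all genes). Cox18, which inserts a catalytic subunit of complex IV, was at 0.80 in DTrsp, and the complex I factor Ndufaf4 at 0.72. The 72 mitochondrial ribosomal protein genes had medians of 0.28, 0.05, 0.02 and -0.05. In DTrsp 16 were at least 1.5-fold higher (22.2%, against 15.6% of all genes). Of the 16 measured genes of the tricarboxylic acid cycle and pyruvate dehydrogenase, 11 were at least 1.5-fold higher in DTrsp (15.6% of all genes). By that much lower were 0 (6.96%), and the median was 0.71. Idh2, the NADP-dependent isocitrate dehydrogenase, was at 1.56, Suclg1 at 1.46, and Mdh2 and Ogdh both at 1.08. In G37H that list had a median of -0.18, with Pdhb at -1.54 and Dlat at -1.06, both of pyruvate dehydrogenase.

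The 21 carriers had a median of 0.34 in DTrsp, with 5 of 21 at least 1.5-fold higher (15.6% of all genes). Slc25a5, which exchanges ATP for ADP across the inner membrane, was at 1.45, Atpif1, an inhibitor of ATP synthase, at 1.15, and cytochrome c, Cycs, at 1.02. In A34 these 3 were at -0.09, -0.05 and 0.00, with -0.29, 0.04 and 0.42 in G37L and -0.06, 0.48 and 0.15 in G37H. The 26 import and quality control genes had a median of 0.40 in DTrsp, with 10 of 26 at least 1.5-fold higher (15.6% of all genes) and 1 lower (6.96%). Clpx, the chaperone part of a matrix protease, was at 1.39 and the import subunit Timm22 at -1.11. The 17 regulators had medians of 0.21, 0.06, -0.21 and -0.30. Of those named above as drivers of subunit genes, Nrf1 was at 0.49 in DTrsp, Esrra at 0.48, Yy1 at 0.25 and Gabpa at -0.63; Nrf1, Esrra and Yy1 were chosen after their values were seen. Ppargc1b, a PGC-1 family coactivator, was at 0.69 in DTrsp, with 1.25 in A34, -0.21 in G37L and 0.57 in G37H. Whether subunit values follow those of Ppargc1b was not tested, because each line has only 1 averaged value per probe.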

How the data were processed

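The deposited table holds log2 ratios, read as mutant (Cy5) over wild type (Cy3) from the dye labels. Per the labels' protocols, 15 µg of total RNA per liver was copied from oligo-dT, and the authors averaged 1 array per animal. That direction is likely, not stated; turned, every sign would change. The base of the logarithm, normalization, background correction and spot filters are not given in any source used here. Of 15478 probes, 13047 had 1 gene in a 2007 annotation, with symbols updated to GRCm38.p6 through the gene identifier; 110 had several genes and 2321 were unnamed. Probes of a gene were averaged (pandas 2.3.3). Genes were counted at 1.5-fold (a log2 ratio of 0.585) and 2-fold. Any member may be named, and up to 4 extreme genes of another list. Decimals show averages over fewer arrays for 3.42% to 4.79% of the 146 member probes and for 5.77% to 14.4% of all probes. Averages over fewer arrays can also give decimals that are not told apart, so these shares are lower bounds. The number of arrays limits the precision. Counts, medians and motif searches were tested on simulated data. Members and lists were chosen with earlier results of these data known. Alternatives concerned centring, probe summary, scale, logarithm base, members and threshold.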

Additional observations from a re-analysis of the deposited data

How the results depend on the processing

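No paired analysis was possible because each column is an average over animals, and no animal could be left out in turn. Of 44 recomputed subunit medians, 35 stayed within 0.1 of the reported value. Some of these could not move: updated symbols differed for 0 members, and DTrsp was scaled to its own spread. The limit of 0.1 also exceeds the G37L and G37H medians of 0.07 and 0.09. Probes counted singly gave 0.006 and 0.005 there, within that limit. Centred on the median of all genes, the medians were 0.29 (DTrsp), 0.18 (G37L) and 0.21 (G37H), and members at least 1.5-fold higher were 14 in DTrsp, 2 in A34 and 2 in G37L. Centred on abundant transcripts, all 4 medians changed sign, to -0.082, -0.084, -0.27 and -0.10 in DTrsp, A34, G37L and G37H, with counts of 0, 1 and 0 in the first 3. Probes counted singly gave a median of 0.033 in A34 and counts of 67, 2 and 6 of 146 probes in DTrsp, G37L and G37H, of which 58 are Sdha. Read as natural logarithms, the DTrsp median was 0.66 and the counts 47, 7, 4 and 7. Scaled to the DTrsp spread, A34 had 7. Shares of all genes were not recomputed for the centred, rescaled or natural-logarithm counts, which therefore have no background beside them. At 2-fold the counts were 2, 0, 0 and 1, and at 3-fold 0 in every line. Leaving out probes whose decimals show fewer arrays, or Uqcrq, moved no median by over 0.1 and no count by over 1.5 times. Both were chosen after seeing the data.
The identity between tissue forms of a subunit was not computed, as no protein table was used here.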
